A study of Rattus norvegicus with 4 samples.

Results

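The genes described here make, phosphorylate, methylate or spend nicotinamide adenine dinucleotide (NAD), the hydride carrier of energy metabolism. They are a list of 8 symbols, chosen by the denervation ratio of Nmrk2 and by function in an earlier look at these data, so their ratios are a description and no test was run on them. Every probe set annotated to exactly 1 of the 8 symbols was used, which gave 8 probe sets for 6 genes (Nmrk2, Nmrk1, Nampt, Nnmt, Nadk and Nnt) out of 14217 genes named on the array. In the annotation used, no probe set was paired with Cd38 or Sirt1, and these genes were not analysed here.

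NAD is rebuilt in muscle mainly from its own breakdown product nicotinamide. Nampt, nicotinamide phosphoribosyltransferase, turns nicotinamide into nicotinamide mononucleotide, and the nicotinamide riboside kinases Nmrk1 and Nmrk2 reach the same intermediate from the vitamin nicotinamide riboside. The Nmnat enzymes then add the adenylate part to complete NAD, Nadk phosphorylates it to NADP, and Nnt, a transhydrogenase of the inner mitochondrial membrane, passes hydride from NADH to NADP. Nnmt methylates nicotinamide and so takes it out of the cycle. Nmrk2 is known as the kinase of skeletal and heart muscle, where its product was also described as a muscle integrin-binding protein, while Nmrk1 is found in most tissues.

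The tissue was soleus, a slow postural muscle of the hindlimb, from male Wistar rats labelled 14 weeks old at collection (10 weeks at the start) and fed for 24 days. There were 4 groups: genistein diet denervated, control diet denervated, genistein diet sham and control diet sham. The genistein diet was AIN-93G with genistein, an isoflavone of soy and a ligand of oestrogen receptors, at 0.05% (0.5 g per kg), and the control diet was a modified AIN-93G in which corn oil took the place of soybean oil. On day 14 the sciatic nerve of the left leg was cut out and the right leg had sham surgery, so each denervated pool and its sham pool came from the same rats 10 days later. RNA of 8 rats was pooled per group and put on 1 Affymetrix array, so no group has a replicate, no value below has an error of its own, and p-values could not be had. The sham leg thus belonged to a rat whose other leg had lost its nerve. The treatment field of 2 samples contradicts their titles, from which the groups were taken.

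Signals are the authors' linear intensities. Those under 78.9 units, the 40th percentile of all probe sets, were raised to that floor, and a gene was called measured if either array of a comparison exceeded the floor. The median signal was 132.5 and 120.8 units on the genistein and control denervated arrays and 129.9 and 128.0 units on the genistein and control sham arrays. Chrng, the fetal acetylcholine receptor subunit that appears on fibres without a nerve, read 1045.9 and 881.4 units in genistein and control denervated muscle, against 28.0 and 26.0 units in the genistein and control sham muscles, as the titles have it. Of the denervation markers listed, 11 of 12 measured on genistein and 10 of 11 on the control diet were at least 2-fold higher in denervated muscle. All 10 muscle fibre genes listed as a tissue check were above the floor on all 4 arrays. The ratio of 3′ to 5′ actin signal, which grows as RNA degrades, was 2.76 and 3.79 in genistein and control denervated muscle, against 2.32 and 2.08 in genistein and control sham muscle. The same ratio for Gapdh ran the other way, at 1.13 and 1.14 in genistein and control denervated muscle, against 1.20 and 1.24 in genistein and control sham muscle. The part of RNA quality in the ratios below was not tested.

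The start regions of the paralogues Nmrk2 and Nmrk1 are shown because these kinases carry out the same reaction while their denervation ratios were far apart in size. The sequences are from RefSeq, build GRCr8, 250 bases before to 50 after the annotated start on the plus strand, at chr7:9165317-9165616 for Nmrk2 and chr1:225475812-225476111 for Nmrk1. Capitals mark CANNTG, the E-box that muscle basic helix-loop-helix factors such as myogenin bind, and TATAAA, the letters of a TATA box. They are matches of letters, and whether any of them works in the gene was not tested.
Nmrk2: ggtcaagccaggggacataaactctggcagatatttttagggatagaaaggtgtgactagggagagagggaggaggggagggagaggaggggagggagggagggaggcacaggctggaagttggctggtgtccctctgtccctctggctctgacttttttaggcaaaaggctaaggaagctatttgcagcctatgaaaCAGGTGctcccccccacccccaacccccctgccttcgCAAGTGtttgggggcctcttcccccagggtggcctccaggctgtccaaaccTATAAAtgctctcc
Nmrk1: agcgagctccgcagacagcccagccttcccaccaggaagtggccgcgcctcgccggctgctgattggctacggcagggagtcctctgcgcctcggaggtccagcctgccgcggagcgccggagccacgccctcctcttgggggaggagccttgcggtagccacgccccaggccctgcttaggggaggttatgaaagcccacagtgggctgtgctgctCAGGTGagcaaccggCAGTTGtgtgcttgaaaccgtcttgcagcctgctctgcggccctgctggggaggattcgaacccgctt

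Both windows hold 2 E-boxes, beginning 52 and 15 bases upstream of the start in Nmrk2 and 33 and 18 bases upstream in Nmrk1, and the first of each has the letters CAGGTG. Such a match is common, since 72.1% of 33469 promoters of the same length hold CANNTG on either strand. TATAAA lies in the Nmrk2 window alone of these 2, beginning at base 37 downstream of the annotated start, and is found in 14.2% of promoters. The letters of the MEF2 site, the CArG box, the E-box CACGTG and the oestrogen-related receptor element TNAAGGTCA, searched on both strands, are in neither window, and are in 3.29%, 1.64%, 6.42% and 1.20% of promoters. CACGTG, which CANNTG includes, is in the Nnt window, beginning 53 bases upstream. The other members have no start region in the table used.

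Nmrk2 signal was far lower in denervated than in sham soleus in both diets. Its probe set (1378423_at) read 402.2 units in genistein denervated and 257.5 units in control denervated muscle, against 4458.0 units in genistein sham and 5945.7 units in control sham muscle. Both denervated pools lay far below both sham pools, yet still 5.10 and 3.26 times above the floor on genistein and control diet. The log2 ratio of denervated over sham was -3.47 on genistein, an 11.1-fold lower signal, and -4.53 on the control diet, a 23.1-fold lower signal. Denervated muscle thus kept 9.02% of the sham signal on genistein and 4.33% on the control diet. In bulk muscle, fewer cells of a type and less RNA per cell cannot be told apart.

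**Figure D1:**
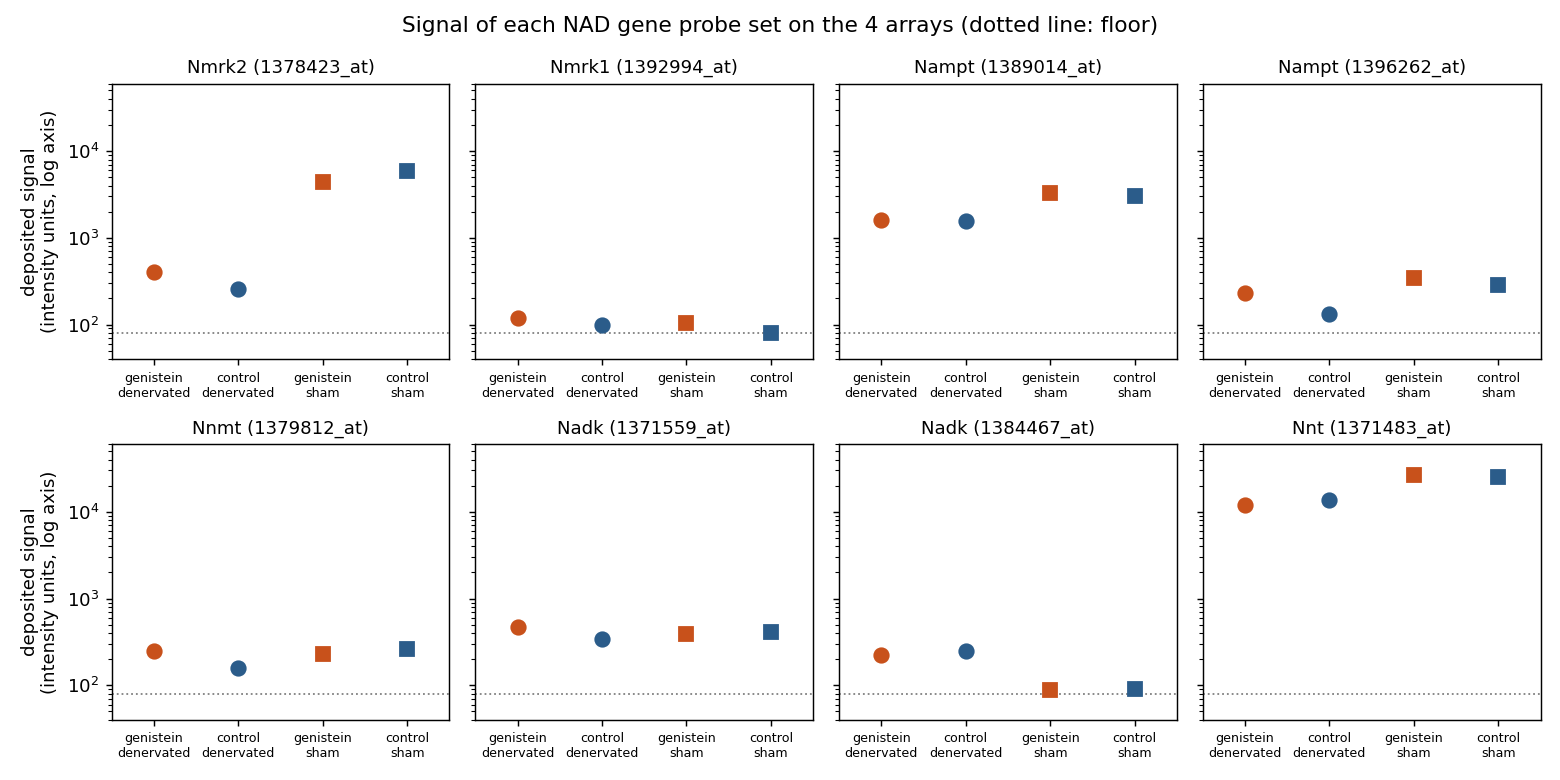
Deposited signal (intensity units, log axis) of the 8 probe sets of the 6 NAD genes on each array, with denervated muscle as circles, sham muscle as squares, genistein diet in orange and control diet in blue; each point is 1 pool of 8 rats and the dotted line is the floor of 78.9 units. Nmrk2 read 402.2 and 257.5 units in genistein and control denervated muscle, against 4458.0 and 5945.7 units in genistein and control sham muscle. From sham to denervated muscle, the probe sets of Nadk run in different directions on the control diet and in the same direction on genistein.

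Few genes had lower ratios than Nmrk2. It was the 19th lowest of 10810 measured genes on genistein and the 3rd lowest of 10755 on the control diet. Nmrk2, Nampt and Nnt, 3 of the 6 NAD genes, were at least 2-fold lower on genistein, where 6.57% of all measured genes were. On the control diet Nmrk2 was the 1 of 6 at least 2-fold lower, where 7.63% of all measured genes were. Counts of at least 2-fold higher were 0 of 6 in either diet, where 4.96% of all genes on genistein and 5.04% on the control diet were. These counts use the brightest probe set of each gene. The other Nadk probe set was past 2-fold higher, at 1.35 on genistein and 1.45 on the control diet. The other Nampt probe set was at -0.59 and -1.13, past 2-fold lower on the control diet. The median ratio over all genes was 0.02 and 0.00 log2 units on genistein and control diet.

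**Figure D2:**
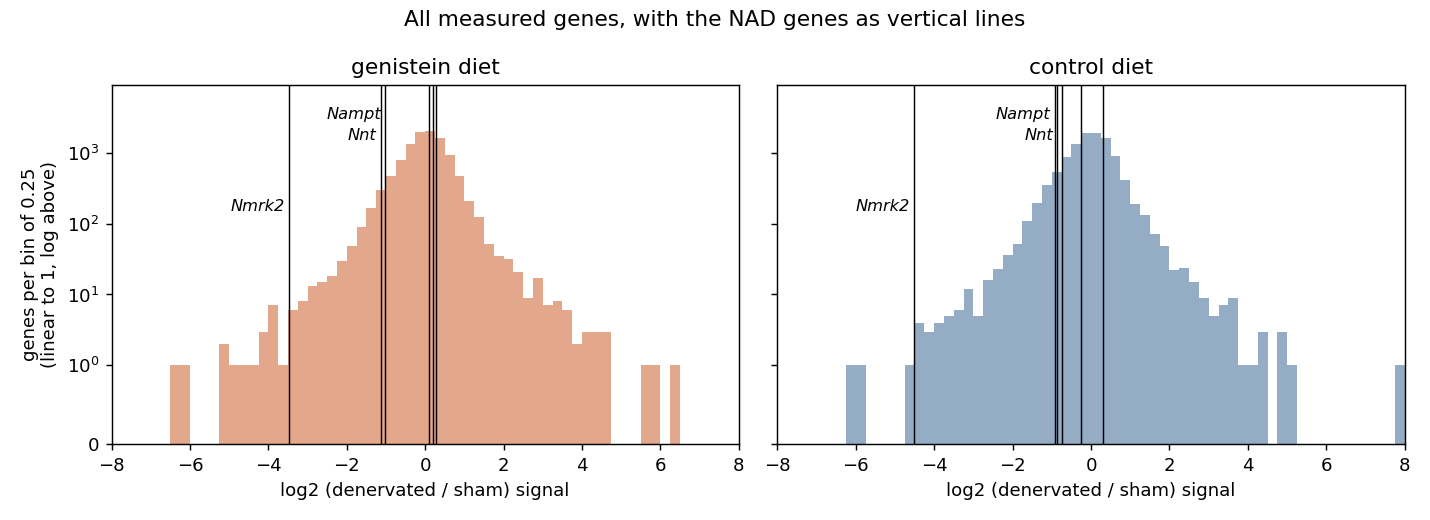
Number of genes per bin of 0.25 log2 units (y axis linear to 1 and logarithmic above) by log2 ratio of denervated over sham signal (x axis), for the genistein diet on the left and the control diet on the right, with a vertical line for each NAD gene. Nmrk2 lies in the far lower tail at -3.47 and -4.53, and Nampt and Nnt lie on the lower shoulder, between -1.14 and -0.87.

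Nmrk1 gave the opposite sign, at a signal close to the floor. Its probe set (1392994_at) read 120.4 units in genistein denervated and 99.9 units in control denervated muscle, against 104.4 units in genistein sham and 80.7 units in control sham muscle. The denervated and sham pools overlapped, and every value was within 1.53 times the floor. The log2 ratios of denervated over sham were 0.21 on genistein and 0.31 on the control diet. The SD between probe sets of the same gene, over 2310 genes with several, was 0.36 on genistein and 0.35 on the control diet, so the Nmrk1 ratios as deposited are no larger than that scatter. Under median, quantile and hybridisation control scaling the control diet ratio was 0.39, 0.43 and 0.53, past that SD, and on genistein hybridisation control scaling gave 0.68. Probe sets of a gene share their arrays, and this SD leaves out any scatter between pools.

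Nampt, which sets the pace of NAD salvage from nicotinamide, had lower signals in denervated muscle on both of its probe sets. The brighter one (1389014_at) read 1615.6 units in genistein denervated and 1580.6 units in control denervated muscle, against 3286.0 units in genistein sham and 3013.3 units in control sham muscle. The pools of each operation lay close together and the operations did not overlap. The log2 ratio was -1.02 on genistein and -0.93 on the control diet, 2.03-fold and 1.91-fold lower. The dimmer probe set (1396262_at) read 229.4 units in genistein denervated and 131.2 units in control denervated muscle, against 345.9 units in genistein sham and 287.7 units in control sham muscle, with log2 ratios of -0.59 and -1.13. Its gap to the brighter probe set, 0.43 on genistein and 0.20 on the control diet, is ordinary, as 39.8% and 68.4% of genes with several probe sets had a gap at least as wide. The order of the diets differed between the probe sets. Scaled by hybridisation controls, which are spiked into each sample and move the median ratio of all genes to 0.48 on genistein and 0.37 on the control diet, the brighter probe set gave -0.55 and -0.54.

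Nnt, the mitochondrial transhydrogenase, also had lower signals in denervated muscle. Its probe set (1371483_at) read 12151.9 units in genistein denervated and 13778.2 units in control denervated muscle, against 26704.4 units in genistein sham and 25176.7 units in control sham muscle. Both denervated pools lay well below both sham pools. The log2 ratio was -1.14 on genistein and -0.87 on the control diet, 2.20-fold and 1.83-fold lower. Only 4.88% of measured genes on genistein and 9.66% on the control diet had a lower ratio. Quantile normalization brought the ratios to -0.61 and -0.42, still lower in denervated muscle.

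Nnmt, the methyltransferase, had denervation ratios of different sign in the diets. Its probe set (1379812_at) read 250.8 units in genistein denervated and 159.5 units in control denervated muscle, against 232.4 units in genistein sham and 264.8 units in control sham muscle. The control denervated pool was the low one, and the other 3 pools lay close together. The log2 ratio was 0.11 on genistein and -0.73 on the control diet. The genistein ratio was smaller than the SD between probe sets of a gene, 0.36 in that comparison. It was 0.02 after quantile normalization. Scaled by hybridisation controls, the ratios were 0.59 on genistein and -0.34 on the control diet. With the floor at the 60th percentile the control diet ratio was -0.28, while the genistein ratio stayed at 0.11.

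Nnmt is also made by fat and connective tissue cells, whose markers differed between the same pools. Of 13 fibroblast and matrix genes, 2 were at least 2-fold lower in denervated muscle on genistein and 11 on the control diet. The list medians were -0.67 and -1.37. Their summed signal was 50072 and 28964 units in genistein and control denervated muscle, against 70678 and 69685 units in genistein and control sham muscle, and none was below the floor on every array. Past 2-fold in denervated muscle, adipocyte genes numbered 3 higher and 1 lower of 8 measured on genistein, and 0 higher and 2 lower of 7 on the control diet, with list medians of 0.78 and -0.18. Among those higher on genistein were Plin1, at 1.39 on the brightest of 2 probe sets with the other at the floor, and Cidec. The Cidec ratio was 1.06 or more, since its sham signals were below the floor. Those lower were Lpl, lipoprotein lipase, at -1.37 in both diets, and on the control diet Fabp4, a fatty acid binding protein, at -1.14. The control diet median was 0.21 when scaled by hybridisation controls. The 9 adipocyte genes on the array summed to 16762 and 14756 units in genistein and control denervated muscle, against 32922 and 34721 units in genistein and control sham muscle, and Lep was below the floor on all 4 arrays. Most of each sum was Lpl, at 9922.6 and 10425.5 units in genistein and control denervated muscle, against 25688.0 and 26937.9 units in genistein and control sham muscle. The sums thus mainly follow Lpl. The part of these cells in the Nnmt ratios was not tested.

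Nadk, the cytosolic NAD kinase, had probe sets that disagreed. The brighter (1371559_at) read 473.9 units in genistein denervated and 338.6 units in control denervated muscle, against 390.3 units in genistein sham and 407.1 units in control sham muscle, with log2 ratios of 0.28 and -0.27. On that probe set the operations overlapped. The other (1384467_at) read 222.9 units in genistein denervated and 245.3 units in control denervated muscle, against 87.5 units in genistein sham and 89.9 units in control sham muscle, just above the floor. Its log2 ratios were 1.35 and 1.45, with both denervated pools above both sham pools. Gaps as wide as these were seen in 6.02% of genes with several probe sets on genistein (1.07 log2 units) and in 0.823% on the control diet (1.71 log2 units). Which probe set follows the Nadk transcript could not be settled from the signals, and no direction is given for the gene.

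**Figure D3:**
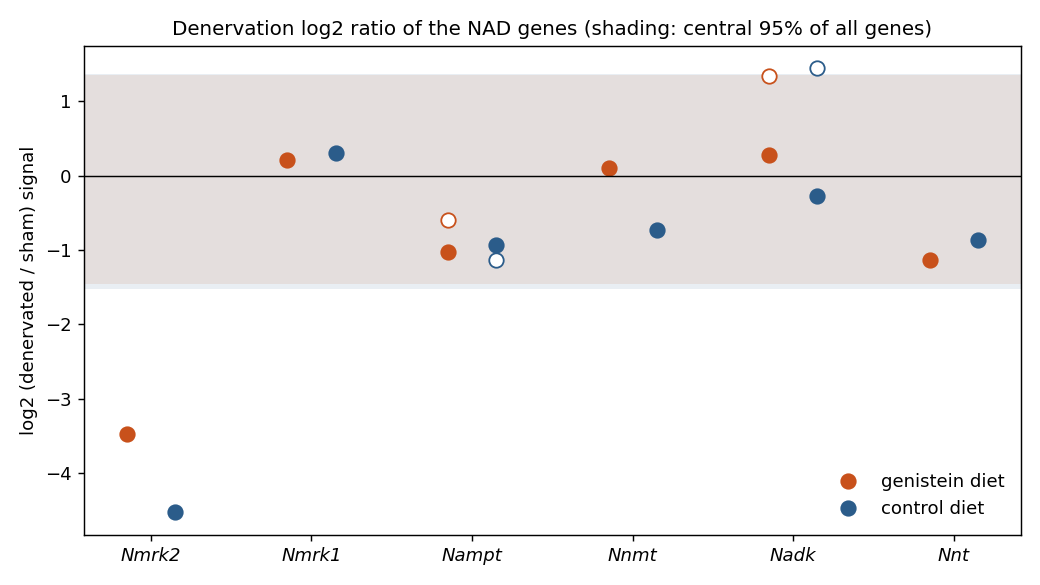
Log2 ratio of denervated over sham signal (y axis) for each NAD gene (x axis), on genistein in orange and on the control diet in blue; filled points are the brightest probe set of a gene, open points its other probe set, and the shading spans the central 95% of all measured genes. Nmrk2 at -3.47 and -4.53 lies far below the shading, and the open Nadk points at 1.35 and 1.45 stand apart from the filled ones at 0.28 and -0.27.

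The diet was compared within each operation. These comparisons reuse the same 4 arrays as the denervation ratios, so they are not independent of them. In sham muscle, 0 of 6 NAD genes differed 2-fold between genistein and control diet, where 0.61% of 10819 measured genes did. In denervated muscle 0 of 6 did, where 1.15% of 10479 did. No test could be run.

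Within sham muscle, the log2 ratio of genistein over control diet was -0.42 for Nmrk2, 0.37 for Nmrk1 and 0.12 for Nampt. It was -0.19 for Nnmt, -0.061 for Nadk and 0.085 for Nnt. The SD between probe sets of a gene was 0.26 in this comparison. Of these values on the brightest probe sets as deposited, those of Nmrk2 and Nmrk1 were beyond it. The dimmer Nampt probe set was at 0.27, and Nmrk1 at 0.19 when scaled by hybridisation controls.

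Within denervated muscle, the Nmrk2 log2 ratio of genistein over control diet was 0.64, a 1.56-fold higher signal, and 4.94% of genes had a higher ratio. Nnmt was at 0.65, 1.57-fold higher, Nadk at 0.49 on its brighter probe set and -0.14 on the other, and Nmrk1 at 0.27. Nampt was at 0.03 on the brighter probe set, which turned to -0.10 under median scaling, and at 0.81 on the dimmer one, and Nnt was at -0.18. The SD between probe sets was 0.25. Markers of other cells were higher in the same pool. All 13 fibroblast and matrix genes and all 14 measured macrophage and leukocyte genes had ratios above 0 there, with medians of 0.81 and 0.75, as had 8 of 9 endothelial genes (median 0.57) and 6 of 8 measured adipocyte genes. The macrophage and leukocyte signals summed to 14754 units in genistein denervated and 9261 units in control denervated muscle, with Cd3e and Cd79b below the floor on every array. The 10 muscle fibre genes had a median of -0.21, with 9 below 0. The part of these cells in the ratios of the NAD genes was not tested.

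The denervation ratio of Nmrk2 was less negative on genistein than on the control diet by 1.06 log2 units. Of the 6 members this was the 1 past 2-fold, where 2.74% of 10414 genes were. The difference came from both operations, since Nmrk2 read higher on genistein in denervated muscle and lower on genistein in sham muscle. On the brightest probe sets it was 0.84 for Nnmt, 0.55 for Nadk, -0.27 for Nnt, -0.10 for Nmrk1 and -0.093 for Nampt, beside an SD between probe sets of 0.34. The other probe sets of Nadk and Nampt gave the opposite sign, at -0.099 and 0.54, so no direction is given for either gene. The Nmrk1 difference turned to 0.15 when scaled by hybridisation controls. The Nmrk2 difference was under 2-fold after median scaling (0.95) and quantile normalization (0.91).

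Other genes of NAD metabolism were counted from lists drawn up by function. The list for NAD synthesis held 17 genes on the array, some of them on side branches of the kynurenine route. Of these, 1 of 12 measured on genistein and 1 of 10 measured on the control diet was at least 2-fold lower in denervated muscle, and 0 were 2-fold higher in either. Ratios were below 0 for 9 genes on genistein and 7 on the control diet, and above 0 for 3 in each. The list median was -0.33 on genistein and -0.32 on the control diet, against 0.02 and 0.00 over all genes. It turned to 0.07 in both diets when scaled by hybridisation controls, below the 0.48 and 0.37 of all genes under that scaling. The gene past 2-fold was Nmnat3, the Nmnat enzyme known from mitochondria, at 301.0 and 407.4 units in genistein and control denervated muscle, against 1000.9 and 922.5 units in genistein and control sham muscle (log2 ratios -1.73 and -1.18). Nmnat2, the Golgi form, had log2 ratios of at most -0.78 (at the floor on genistein) and -0.26. Kyat1, a kynurenine aminotransferase of a side branch that does not lead to NAD, was at -0.70 and -0.93. Afmid, a formamidase of the kynurenine route from tryptophan, was at the floor in both denervated pools. Its ratios were at most -0.73 and -0.63 on the brightest of 3 probe sets. The 3 ranged up to 0.00, the value of a probe set at the floor on both arrays. Haao, Kmo, Tdo2 and Ido1, which act in that route, and Aadat, another aminotransferase of the side branch, were below the floor on all 4 arrays.

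Among transporters and enzymes that handle NAD or its precursors outside the cell, 5 of 7 genes on the array were measured. Slc29a1, the equilibrative nucleoside transporter, read 4339.0 and 3979.5 units in genistein and control denervated muscle, against 1095.9 and 1128.4 units in genistein and control sham muscle (log2 ratios 1.99 and 1.82). Its relative Slc29a2 was at 1.33 and 0.81 on the brightest probe set and at 0.49 and 0.52 on the other, under 2-fold. Nt5e, the surface nucleotidase CD73, was at 0.01 on genistein and -1.10 on the control diet, where 129.5 units in the control denervated pool stood apart from 258.4 to 276.9 units in the other 3. Gja1, connexin 43, was at -0.63 and -1.10 on the brightest of 3 probe sets. The 3 ranged up to 0.00 in both diets, the value of a probe set at the floor on both arrays.

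Enzymes that consume NAD went both ways. Of 24 measured, 2 on genistein and 1 on the control diet were at least 2-fold higher in denervated muscle, and 2 in each diet at least 2-fold lower, and the medians were 0.09 and -0.03. Sirt3, the main mitochondrial deacetylase of the sirtuins, read 588.8 and 631.2 units in genistein and control denervated muscle, against 1988.6 and 2167.5 units in genistein and control sham muscle (log2 ratios -1.76 and -1.78). Tnks2, tankyrase 2, gave -1.22 and -1.19 by the brightest probe set, and its 4 probe sets reached up to -0.42 on genistein and -0.58 on the control diet, under 2-fold. Sarm1, an NAD-cleaving enzyme known for its part in axon degeneration, was higher, at 198.1 and 259.2 units in genistein and control denervated muscle, against 58.7 (below the floor) and 85.7 units in genistein and control sham muscle, with log2 ratios of at least 1.33 and of 1.60. Parp10, a mono-ADP-ribosyltransferase, was at 1.27 and 0.85.

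Downstream of Nnmt, Aox1, the aldehyde oxidase that oxidises methylated nicotinamide, had a large ratio. It read 1056.7 and 1507.1 units in genistein and control denervated muscle, against 199.8 and 244.0 units in genistein and control sham muscle (log2 ratios 2.40 and 2.63). Ahcy, which clears the product of methyl transfer, was at 0.66 on genistein and just past 2-fold on the control diet, at 2344.5 units in denervated and 1168.3 units in sham muscle. Gamt, which uses methyl groups to make creatine, was at -1.69 and -1.81. Over the methylation list, 1 of 7 measured genes on genistein and 2 of 9 on the control diet were at least 2-fold higher and 1 in each diet was 2-fold lower, with medians of 0.25 and 0.11.

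In the list drawn up for NADP and NADPH production, beside Nadk and Nnt, 12 genes were measured on genistein and 11 on the control diet. Of these, 2 in each diet were at least 2-fold higher in denervated muscle and 1 in each diet lower. The medians were 0.02 and 0.01. Me2, a mitochondrial malic enzyme that mainly uses NAD rather than NADP, had ratios of 2.78 and 2.87 on the brightest probe set. Its other probe set was at the floor throughout. Pgd, of the pentose phosphate pathway, was at 1.24 and 1.36. Idh2, the mitochondrial NADP-dependent isocitrate dehydrogenase, was at -1.11 and -1.06.

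The NADH shuttles and lactate dehydrogenases had lower signals throughout. All 11 genes had ratios below 0 in both diets, 6 on genistein and 5 on the control diet past 2-fold. The list medians, -1.08 and -0.96, were -0.60 and -0.57 when scaled by hybridisation controls. Got1, the cytosolic aspartate aminotransferase, was at -1.73 and -1.90, and Mdh2, mitochondrial malate dehydrogenase, at -1.64 and -1.55. Gpd1, of the glycerol phosphate shuttle, had ratios of -1.97 and -1.54 on the brightest probe set, with the other at the floor. Nampt and Nnt lay near the median of this list. The 10 muscle fibre genes also had ratios below 0 in both diets, 3 in each past 2-fold, with medians of -0.75 on genistein and -0.64 on the control diet.

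**Figure D4:**
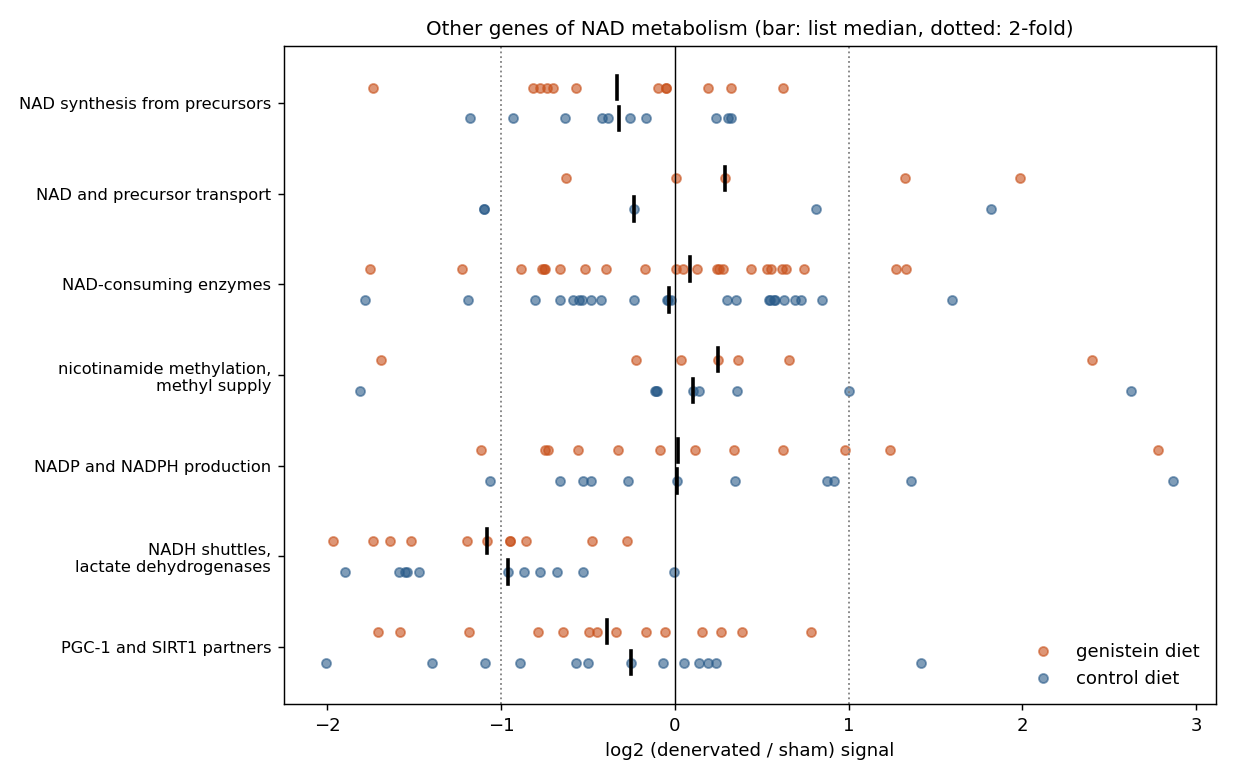
Log2 ratio of denervated over sham signal (x axis) for the measured genes of 7 lists of NAD-related function (y axis), on genistein in orange above and on the control diet in blue below; each point is a gene, black bars are list medians and dotted lines mark 2-fold. All 11 genes of the NADH shuttle list lie below 0, while Me2, Aox1 and Slc29a1 are the points farthest to the right in their lists.

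Of the partners and regulators of SIRT1 and PGC-1, 3 genes in each diet were at least 2-fold lower, of 14 measured on genistein and 13 on the control diet, and 0 on genistein and 1 on the control diet at least 2-fold higher. Ppargc1b, the coactivator PGC-1 beta, was at -1.58 and -2.01, and Esrra and Esrrg, oestrogen-related receptors that work with it, at -1.71 and -1.40 and at -1.18 and -1.09. Foxo1, a transcription factor that SIRT1 deacetylates, was at 0.78 and 1.42 on the brightest of 3 probe sets. The 3 ranged down to 0.00 in both diets, the value of a probe set at the floor on both arrays. The list medians, -0.39 and -0.25, turned to 0.06 and 0.14 when scaled by hybridisation controls, again below the median of all genes.

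The genes most like Nmrk2 were found by the Euclidean distance between log2 profiles over the 4 arrays, each centred on its own mean, over the 9362 genes that exceeded the floor on all arrays. The nearest were Mgst3, a microsomal glutathione transferase (distance 0.34), Ramp1, a coreceptor for calcitonin gene-related peptide (0.37), Dhrs7c, a dehydrogenase of the muscle sarcoplasmic reticulum (0.60), the long non-coding RNA LOC100912310 (0.64) and Tfrc, the transferrin receptor (0.64). With 4 arrays the distance mostly reflects the size of the denervation ratio. Mgst3 had log2 ratios of -3.84 on genistein and -4.25 on the control diet, and Ramp1 of -3.80 and -4.18. In sham muscle their ratios of genistein over control diet were -0.01 and 0.06, whereas that of Nmrk2 was -0.42.

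**Figure D5:**
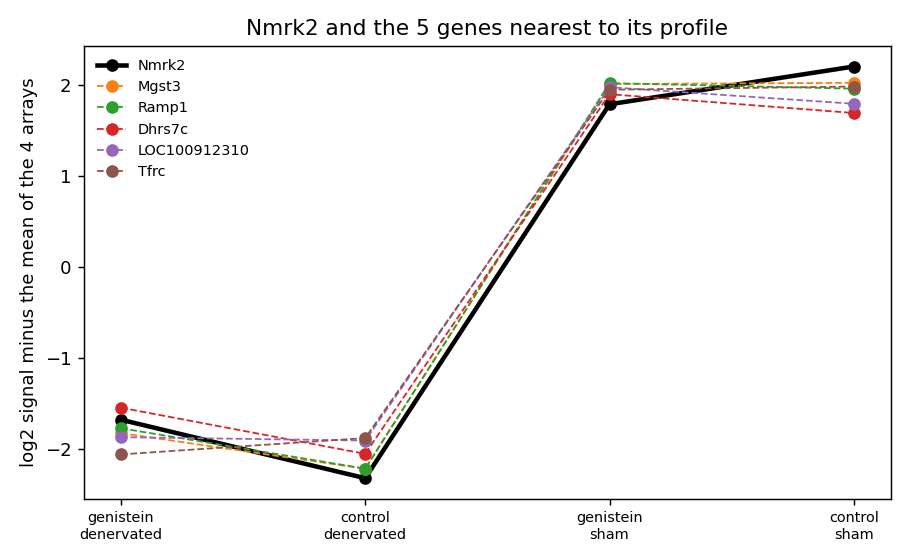
Log2 signal minus the mean over the 4 arrays (y axis) for Nmrk2 (black) and the 5 genes with the nearest profiles (dashed) in each pool (x axis); lines only join the values of a gene. All 6 genes separate denervated from sham muscle, and Nmrk2 is the lowest in genistein sham and the highest in control sham muscle of the 6.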

How the data were processed

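Soleus RNA pools of 8 rats were hybridised as biotin-labelled RNA to 1 Affymetrix rat array per group (4 arrays). The authors deposited a linear intensity for every probe set. GCOS version 1.1 is named in the submitters' processing notes, while their scaling target was not found in the sources. Array means, trimmed by 2% at either end, were about equal (500.2 units), so the deposited scaling was kept. Of 31042 probe sets (57 controls aside), 20826 had 1 gene symbol, 436 several and 9780 none listed, and 20758 identifiers matched GRCr8. A gene was represented by its brightest probe set. Signals were raised to the 40th percentile (78.9 units) before log2 ratios were taken, in Python 3.11.15 with pandas 2.3.3, a step checked on simulated data. With 1 array per group no test was run, 2-fold served as a fixed size for counting genes, and the number of arrays limits the precision. Members and lists (13 lists, 179 symbols, 167 on the array) were chosen with earlier results of these data known. Named were all members, up to 4 genes per list by mean size of the denervation ratio, the 5 genes nearest to Nmrk2, and Chrna1, Chrng and Myog (label check); Chrna1 had ratios of 3.35 and 3.47 and Myog of 2.09 and 1.82 on genistein and control diet. Alternatives were 3 other scalings, 2 other floors, the mean of probe sets and a size of 1.5-fold.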

Additional observations from a re-analysis of the deposited data

Results flagged for a closer look

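Several NAD genes had ratios on opposite sides of 0 in the groups compared, and none of these differences was tested, since each group is 1 array. For the denervation ratio, Nnmt was at 0.11 on genistein and -0.73 on the control diet, and Nadk at 0.28 and -0.27 on its brighter probe set. Of these ratios, only that of Nnmt on the control diet exceeded the SD between probe sets of a gene (0.36 on genistein and 0.35 on the control diet). The ratios of genistein over control diet in denervated and in sham muscle were 0.64 and -0.42 for Nmrk2, 0.65 and -0.19 for Nnmt, 0.49 and -0.061 for Nadk on its brighter probe set (-0.14 and -0.039 on the other, the same sign) and -0.18 and 0.085 for Nnt. Of these 4 genes on the brightest probe sets, Nmrk2 was the 1 whose ratios exceeded the SD between probe sets of a gene on both sides (0.25 in denervated and 0.26 in sham muscle). This SD leaves out any scatter between pools. The central 95% of all genes ran from -0.52 to 0.82 in denervated and from -0.58 to 0.60 in sham muscle. Both Nmrk2 ratios lay within those spans. The denervation and diet ratios of a gene are made from the same 4 signals.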

How the results depend on the processing

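Over the 6 members and 5 comparisons, 155 of 175 recomputed ratios moved by no more than the SD between probe sets of a gene, 20 moved further, and 0 of those past 2-fold changed sign. Many of the 155 could not move. Every member signal was above the floor, so leaving out the floor changed no member ratio. The mean of probe sets cannot change a gene with 1 probe set (Nmrk2, Nmrk1, Nnmt and Nnt). Of the members measured with the floor at the 60th percentile, Nnmt alone had changed ratios. Scaling by hybridisation controls shifted the median of all genes to 0.48 and 0.37 log2 units for denervation on genistein and control diet. It gave -2.99 and -4.14 for Nmrk2. On genistein it put 1 of 6 members past 2-fold, where it put 2016 of 10846 genes past it. Median scaling shifted the median of genistein over control diet in denervated muscle to -0.13. On the control diet the mean of probe sets put 2 of 6 members past 2-fold, where it put 1142 of 10774 genes past it. A size of 1.5-fold called 4 of 6 members for denervation on the control diet, where it called 3414 of 10755 genes. It called 2 members for diet in denervated muscle, where it called 840 of 10479 genes. For the difference between diets it called 2 members, where it called 1373 of 10414 genes. Median and quantile scaling called 0 members past 2-fold for that difference, where they called 253 of 10414 and 258 of 10409 genes. Nadk on the control diet turned positive with hybridisation control scaling (0.12) and the mean of probe sets (0.59). Over all genes, counts past 2-fold under the other scalings, floors and probe set rule ran from 916 to 2961 for denervation on genistein, 970 to 3287 on the control diet, 33 to 1699 for diet in denervated and 8 to 1742 in sham muscle, and 53 to 2603 for the difference, against 1246, 1363, 120, 66 and 285. The share of higher genes among those past 2-fold was 86.8% and 78.2% on genistein and control diet with hybridisation control scaling, against 43.0% and 39.8%. Nmrk1 was not measured with the floor at the 60th percentile. No paired analysis was possible because each group is 1 pooled array. Signals near the floor (Nmrk1, the dimmer Nadk probe set in sham muscle) limit what can be read from them.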
